A study of Mus musculus with 6 samples.

Results

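Induced pluripotent stem cell (iPSC) lines labelled with palmitoylcarnitine (PC iPSC) were compared with control iPSC lines of the mouse, gene by gene, from read counts of RNA sequencing. The comparison used 4 of the 6 libraries of the series, chosen by their labels: 2 PC iPSC lines, numbered 5 and 13, and 2 control iPSC lines, numbered 3 and 7, which the labels call normal. The other two libraries, 1 of embryonic stem cells (ESC) titled B6 with the source name B6/blu and 1 of mouse embryonic fibroblasts (MEF), helped to place the levels and stayed in the fit, to which single libraries add no measure of spread. Per the labels' protocols, all iPSC and ESC were kept in M15 medium with serum and leukemia inhibitory factor on feeder cells (MEF stopped in growth by mitomycin C), the sequenced MEF were in DMEM with serum, and mRNA libraries were made from total RNA. How much palmitoylcarnitine was used and when, the reprogramming factors, the cell of origin, the strain and passage of the lines, and whether a numbered line is 1 clone are all not given in the labels.

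Palmitoylcarnitine is palmitate bound to carnitine, the form in which the long-chain fatty acid crosses the inner mitochondrial membrane. Carnitine palmitoyltransferase 1 makes it on the outer membrane, the carrier Slc25a20 exchanges it for free carnitine, and carnitine palmitoyltransferase 2 releases the acyl group inside for beta-oxidation. Long-chain acylcarnitines are also known as membrane-active lipids and as inhibitors of protein kinase C. Mouse pluripotent stem cells kept with leukemia inhibitory factor rely on a transcription factor network of Pou5f1, Sox2, Nanog, Klf4, Esrrb and Tfcp2l1, and reprogrammed lines can differ from each other in expression of single loci.

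No gene passed the test between PC and control iPSC. The log2 difference was positive for 8147 of the 16435 tested genes (49.6%). Among them, edgeR's quasi-likelihood test called 0 at a Benjamini-Hochberg adjusted p under 0.05, which is 0% of them, and the smallest adjusted p was 0.963. At an unadjusted p under 0.05 there were 195 genes (1.19%) with higher and 190 genes (1.16%) with lower values in PC iPSC, together 385 (2.34%). DESeq2 called 0 genes as well, with 248 at an unadjusted p under 0.05. All values below are therefore measurements in these 4 lines, and words such as higher and lower describe values that did not pass the test. Every named gene had an adjusted p of at least 0.963 in edgeR.

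The precision of the comparison depended on the level of a gene. Levels are given as RPKM, reads per kilobase of gene length scaled to the library total of assigned reads. Depth was even, with the lowest total of 26.51 M assigned reads in control iPSC 7 and the highest of 27.99 M in MEF. The median 95% interval of the PC to control ratio reached 2.92-fold to either side where the mean level was under 1 RPKM. It reached 1.45-fold at 1 to 10 RPKM, 1.27-fold at 10 to 100 RPKM and 1.28-fold above. A 2-fold difference in a gene under 1 RPKM was thus within the interval of a typical gene of that level. With 2 lines against 2, an exact permutation test of a single value cannot give a two-sided p below 0.333, so single values are given line by line without one.

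Lines of one group were not always more alike than lines of different groups. Over the 12170 genes with a mean level of at least 1 RPKM, the median absolute log2 difference was 0.201 between the PC lines and 0.140 between the control lines. Between groups it ran from 0.104 for PC iPSC 13 and control iPSC 7, the closest pair of all, to 0.251 for PC iPSC 5 and control iPSC 3, the farthest. Control iPSC 3 had 194 genes at least 2-fold below each of the other 3 lines and 5 at least 2-fold above them. PC iPSC 5 had 52 genes at least 2-fold above and 37 below the other 3. PC iPSC 13 had 6 above and 19 below, and control iPSC 7 had 1 above and 3 below. Each group thus held 1 line near the other group and 1 line farther away.

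The identity of the cells was checked with pluripotency genes, which were high in all 4 lines. Pou5f1, the POU domain factor that pluripotency depends on, had 400.9 and 516.8 RPKM in PC iPSC 5 and 13, 530.8 and 487.2 RPKM in control iPSC 3 and 7, and 602.4 RPKM in ESC. Nanog, its homeobox partner, had 472.7 and 401.3 RPKM in the PC lines, 387.8 and 393.5 RPKM in the control lines, 316.1 RPKM in ESC and 0.0482 RPKM in MEF. The groups overlapped for Pou5f1, and for Nanog both PC lines lay above both control lines by a small margin, with a log2 difference of 0.14 (SE 0.14). The MEF library also held 157.7 RPKM of Pou5f1, 88.2 RPKM of Sox2, 123.5 RPKM of Klf4 and 153.9 RPKM of Myc, so all 4 were present there, the first pair below and the second above every iPSC line. Reads covered 54.62% of the length of Sox2 in MEF, against 99.76% to 99.92% in the iPSC lines. For Myc they covered 88.58% in MEF, against 78.95% to 85.12% in the iPSC lines. The source of these reads was not tested, and this library is the fibroblast reference used here. The summed level of 10 fibroblast markers, Col1a1, Col1a2, Col3a1, Lum, Dcn, Postn, Thy1, Pdgfra, Pdgfrb and Mgp, was 17.1% and 14.2% of the MEF level in PC iPSC 5 and 13, and 7.75% and 15.6% in control iPSC 3 and 7. None of the 10 was at 0 reads in any iPSC line. In such bulk libraries, fewer fibroblasts and less RNA of these genes per cell cannot be told apart.

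Trpm1, Aldh3a1, Zic2 and Chga lay apart between the groups in all 4 lines, and they were singled out with earlier results of these data known, so their values are a description. Trpm1, a cation channel of melanocytes and of retinal ON bipolar cells (chromosome 7, 64153835 to 64269772, GRCm38), had 2.17 and 2.11 RPKM in PC iPSC 5 and 13, against 5.31 and 3.85 RPKM in control iPSC 3 and 7. These levels came from 343 and 328 reads in the PC lines and 838 and 583 reads in the control lines. The log2 difference was -1.12 (SE 0.22, unadjusted p = 0.00142, edgeR), and both PC lines lay well below both control lines. ESC had 1.21 RPKM, nearer to the PC lines, and MEF had 0.05 RPKM. Reads covered 59.67% and 60.88% of the gene's length in the PC lines and 80.58% and 67.48% in the control lines, per the authors' deposited table.

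Aldh3a1, an aldehyde dehydrogenase that oxidises medium-chain and aromatic aldehydes and is abundant in the cornea (chromosome 11, 61208510 to 61218418), was low in every iPSC line. It had 1.13 and 1.00 RPKM in PC iPSC 5 and 13, from 54 and 47 reads, against 0.482 and 0.371 RPKM in control iPSC 3 and 7, from 23 and 17 reads. The log2 difference was 1.29 (SE 0.22, unadjusted p = 0.000768, edgeR), and the groups did not overlap. ESC had 4.51 RPKM, above all 4 lines, and MEF, the kind of cell used as feeder, had 728.0 RPKM. The order of the lines was not that of the fibroblast markers: control iPSC 7 was lowest for Aldh3a1 and had a fibroblast marker level between those of the PC lines. The part of feeder RNA in the Aldh3a1 values was not tested.

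Zic2, a zinc finger transcription factor of the early neural plate that is also active in pluripotent cells (chromosome 14, 122475384 to 122480328), differed among the lines of each group. It had 8.51 and 4.38 RPKM in PC iPSC 5 and 13, against 3.23 and 1.55 RPKM in control iPSC 3 and 7, and 7.81 RPKM in ESC. The log2 difference was 1.40 (SE 0.42, unadjusted p = 0.0129, edgeR). PC iPSC 13 and control iPSC 3 lay close together, and the difference was 0.88 without PC iPSC 5 and 2.03 without control iPSC 3. Zic5, which lies beside Zic2 on chromosome 14 and encodes a factor of the same family, had 4.13 and 2.41 RPKM in the PC lines, against 2.04 and 1.03 RPKM in the control lines, with a log2 difference of 1.07 (SE 0.40, unadjusted p = 0.0344). The order of the 4 lines was the same for both genes, and the difference of Zic5 was 0.66 without PC iPSC 5 and 1.64 without control iPSC 3. Zic1 and Zic4 stayed under 0.6 RPKM in every iPSC line.

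Chga encodes chromogranin A, an acidic protein of the dense-core granules of neuroendocrine cells (chromosome 12, 102554941 to 102565027). It had 5.74 and 5.0 RPKM in PC iPSC 5 and 13, against 12.2 and 8.73 RPKM in control iPSC 3 and 7, with 8.50 RPKM in ESC and none in MEF. The log2 difference was -0.98 (SE 0.23, unadjusted p = 0.00375, edgeR), and both PC lines lay below both control lines. Of the other granins, Scg2 and Scg5 were at 0 reads in both PC lines and in control iPSC 3, where a count of 0 allows up to 3 reads, or 0.108 to 0.11 CPM (reads scaled to the library total). Vgf, a granin-like peptide precursor, had 1.29 and 1.63 RPKM in the PC lines and 0.965 and 1.26 RPKM in the control lines, with a log2 difference of 0.37 (SE 0.34), opposite in sign to that of Chga. The 4 neuroendocrine markers summed to 5.77 and 5.12 RPKM in the PC lines and 12.3 and 8.89 RPKM in the control lines, and almost all of that was Chga itself.

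**Figure D1:**
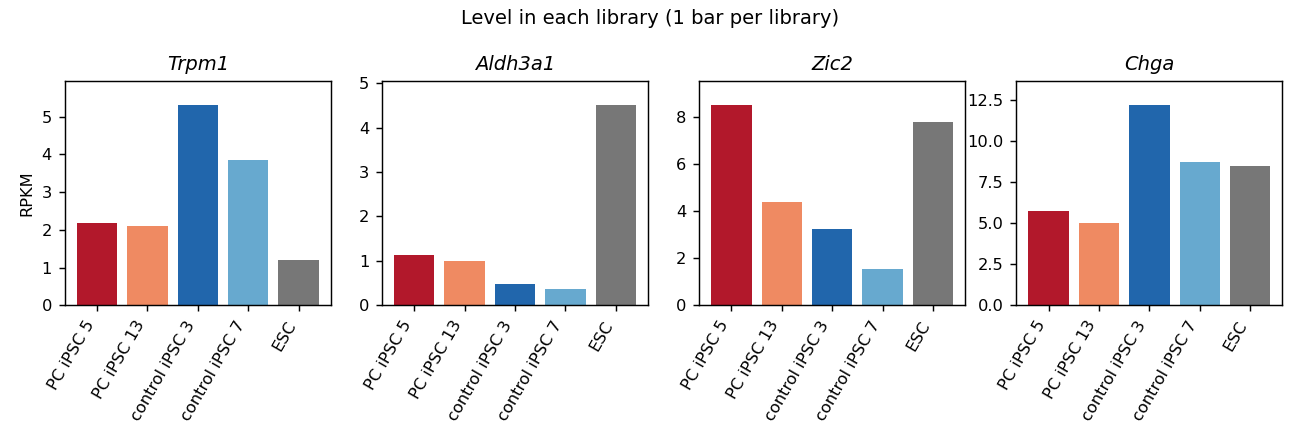
Level of Trpm1, Aldh3a1, Zic2 and Chga (y axis, RPKM, each panel with its own scale from 0) in PC iPSC 5 and 13, control iPSC 3 and 7 and ESC, 1 bar per library without error bars. Trpm1 and Chga are lower in both PC lines than in both control lines, Aldh3a1 and Zic2 are higher, and for Zic2 PC iPSC 13 at 4.38 RPKM is close to control iPSC 3 at 3.23 RPKM; MEF, at 728.0 RPKM of Aldh3a1, is left out.

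The start regions of Trpm1 and Chga are shown because each holds a short element for which its gene is known, and because genes linked to these elements can be read beside them. The windows, from RefSeq on GRCm38.p6, run from 250 bases before to 50 bases after a gene's annotated start, 5′ to 3′ on the gene's strand, with the match in capitals. In Trpm1 (chr7:64185209-64185508, plus strand, the second of 2 annotated starts) the capitals mark CACGTG, the E-box bound by basic helix-loop-helix factors such as Mitf. In Chga (chr12:102554691-102554990, plus strand) they mark TGACGTAA, a cyclic AMP response element, 44 bases before the start.
Trpm1: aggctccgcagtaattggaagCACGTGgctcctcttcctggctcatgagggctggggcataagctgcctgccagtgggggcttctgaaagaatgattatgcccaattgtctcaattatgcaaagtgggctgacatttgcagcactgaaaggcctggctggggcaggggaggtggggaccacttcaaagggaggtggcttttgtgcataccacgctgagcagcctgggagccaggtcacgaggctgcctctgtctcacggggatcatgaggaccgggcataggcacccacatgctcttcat
Chga: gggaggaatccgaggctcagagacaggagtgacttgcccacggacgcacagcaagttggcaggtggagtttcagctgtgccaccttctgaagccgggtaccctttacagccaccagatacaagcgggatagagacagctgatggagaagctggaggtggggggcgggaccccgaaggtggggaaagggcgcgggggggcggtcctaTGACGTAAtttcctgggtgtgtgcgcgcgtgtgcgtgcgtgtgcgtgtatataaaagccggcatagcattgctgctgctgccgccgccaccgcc
CACGTG, which reads the same on both strands, was found in 7.15% of all 32851 windows in the table and in 11.1% of the 12230 tested genes with a window. TGACGTAA on either strand was found in 0.499% of windows and in 0.859% of these genes. A match is a run of letters and shows no binding.

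Mitf, the helix-loop-helix factor of the pigment cell lineage for which Trpm1 is a known target, had 6.02 and 6.11 RPKM in PC iPSC 5 and 13, against 9.18 and 7.46 RPKM in control iPSC 3 and 7. Its log2 difference was -0.48 (SE 0.16, unadjusted p = 0.0202, edgeR), with the order of the groups seen for Trpm1. Pmel, the amyloid protein of melanosomes, had 1.83 and 1.28 RPKM in the PC lines, against 2.82 and 1.93 RPKM in the control lines, with a log2 difference of -0.64 (SE 0.34). Without control iPSC 3 the difference was -0.32 for Mitf and -0.33 for Pmel. The pigment cell list as a whole did not lie to one side: of its 9 tested genes 5 had positive and 4 negative differences. Among the other Trpm channels, Trpm7, a channel fused to a kinase, had 18.3 and 20.1 RPKM in the PC lines and 22.5 and 21.6 RPKM in the control lines. Trpm6, its closest relative, went the other way with 1.21 and 0.960 RPKM in the PC lines and 0.655 and 0.741 RPKM in the control lines. For both, the PC lines lay outside the range of the control lines, with a log2 difference of -0.22 (SE 0.13) for Trpm7 and of 0.61 (SE 0.28) for Trpm6.

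By a rule on the smallest unadjusted p among genes whose groups did not overlap and whose level reached 1 RPKM, 15 genes with higher and 15 with lower values in PC iPSC were taken. That the groups do not overlap was common: it held for 2404 tested genes (14.6%) with higher and 2767 (16.8%) with lower values in PC iPSC. Of the 12170 genes with a mean of at least 1 RPKM, 29 (0.238%) were also at least 2-fold higher and 9 (0.074%) at least 2-fold lower. The absolute log2 differences of the 30 genes ran from 0.48 to 1.40. Their p-values chose them and are given as a description.

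Among the 15 genes with higher values, several act in metabolism. Got1l1, a relative of the cytosolic aspartate aminotransferase, had 20.4 and 14.9 RPKM in PC iPSC 5 and 13, against 8.86 and 10.5 RPKM in control iPSC 3 and 7 (log2 difference 0.84, SE 0.20). Cidea, a lipid droplet protein that promotes droplet growth in brown fat, had 17.3 and 20.4 RPKM in the PC lines, against 10.5 and 11.9 RPKM in the control lines (0.73, SE 0.20). Ccbl1, a cysteine conjugate beta-lyase that also acts on kynurenine, had 12.1 and 11 RPKM in the PC lines, against 7.92 and 7.80 RPKM in the control lines (0.53, SE 0.16). In each of these 3 genes the lowest PC line was at least a few RPKM above the highest control line. The MEF level was 0.0492 RPKM for Got1l1, 0 for Cidea and 3.14 RPKM for Ccbl1, below every iPSC line.

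Proteins of the cell surface and secretory path were also in this group. Enpp3, an ectonucleotide pyrophosphatase, had 2.70 and 3.02 RPKM in PC iPSC 5 and 13, against 1.18 and 1.55 RPKM in control iPSC 3 and 7 (1.04, SE 0.26). Galnt7, which adds N-acetylgalactosamine to proteins in the Golgi, had 7.21 and 8.53 RPKM in the PC lines, against 5.01 and 5.05 RPKM in the control lines (0.63, SE 0.16). Copz2, a coat subunit of COPI vesicles, had 52.6 and 51.2 RPKM in the PC lines, against 33.0 and 37.2 RPKM in the control lines (0.54, SE 0.14). The lines of a group lay closer together than the groups did for all 3 of them.

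Further members were regulators. Gata3, a zinc finger factor of T cells and of the trophoblast, had 1.43 and 1.32 RPKM in PC iPSC 5 and 13, against 0.567 and 0.707 RPKM in control iPSC 3 and 7 (1.09, SE 0.26). Hic1, a transcriptional repressor on chromosome 11, had 2.25 and 1.92 RPKM in the PC lines, against 1.07 and 1.27 RPKM in the control lines (0.81, SE 0.21), and 11.1 RPKM in MEF. Ifi47, an interferon-inducible GTPase on chromosome 11, had 2.55 and 2.32 RPKM in the PC lines, against 0.748 and 1.27 RPKM in the control lines (1.25, SE 0.35). The remaining ones were Hsh2d, an adaptor protein of lymphocytes, Trafd1, which damps innate immune signalling, Stac2 and Ubtd1, with log2 differences of 0.48 to 0.89. In 13 of the 15 genes the ESC level lay above both control lines. Among the 15 genes with lower values, described next, it lay below both control lines in 10. The rule picked genes whose control lines were low or high, which favours such counts, so they are a description only.

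Among the 15 genes with lower values, Susd2, a sushi domain membrane protein, had the smallest unadjusted p of all 30. It had 7.07 and 6.98 RPKM in PC iPSC 5 and 13, against 13.2 and 11.3 RPKM in control iPSC 3 and 7 (-0.82, SE 0.14, unadjusted p = 0.000641, edgeR). Ooep, an oocyte and embryo protein of the subcortical maternal complex, had 60.2 and 67.1 RPKM in the PC lines, against 99.3 and 93.8 RPKM in the control lines (-0.62, SE 0.13). The PC lines agreed closely with each other for both genes, and ESC, at 11 RPKM of Susd2 and 67.9 RPKM of Ooep, lay just below the lower control line for Susd2 and near the PC lines for Ooep.

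Lipid genes were found here too. Apoe, the apolipoprotein that carries cholesterol between cells, had 224.9 and 246.9 RPKM in PC iPSC 5 and 13, against 463.0 and 308.1 RPKM in control iPSC 3 and 7, and 1035.5 RPKM in ESC (log2 difference -0.73, SE 0.21). Ephx2, the soluble epoxide hydrolase that opens fatty acid epoxides, had 18.0 and 15.7 RPKM in the PC lines, against 39.5 and 23.9 RPKM in the control lines (-0.94, SE 0.23). For both genes control iPSC 3 was the highest iPSC line and control iPSC 7 lay nearer to the PC lines. Without control iPSC 3 the difference was -0.40 for Apoe and -0.52 for Ephx2.

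The axon guidance ligand Ntn1, netrin 1, had 2.90 and 2.75 RPKM in PC iPSC 5 and 13, against 6.75 and 4.19 RPKM in control iPSC 3 and 7 (-0.97, SE 0.23). Laptm5, a lysosomal membrane protein best known from blood cells, had 13.4 and 15.1 RPKM in the PC lines, against 27.2 and 19 RPKM in the control lines (-0.72, SE 0.20). Slc30a2, a zinc transporter of vesicles, had 5.16 and 4.18 RPKM in the PC lines, against 8.13 and 7.0 RPKM in the control lines (-0.72, SE 0.19). Without control iPSC 3 the difference was -0.59 for Ntn1, -0.44 for Laptm5 and -0.60 for Slc30a2. Further members were Dnah8, an axonemal dynein, Aox3, an aldehyde oxidase, D1Pas1, a testis helicase of the Ddx3 family, Ly6g6e and the transcribed pseudogene Znf41-ps, with log2 differences of -0.89 to -0.56. In 13 of the 15 genes control iPSC 3 was above control iPSC 7, and in 12 of the 15 genes with higher values it was below it, so that control iPSC 7 mostly lay nearer to the PC lines.

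**Figure D2:**
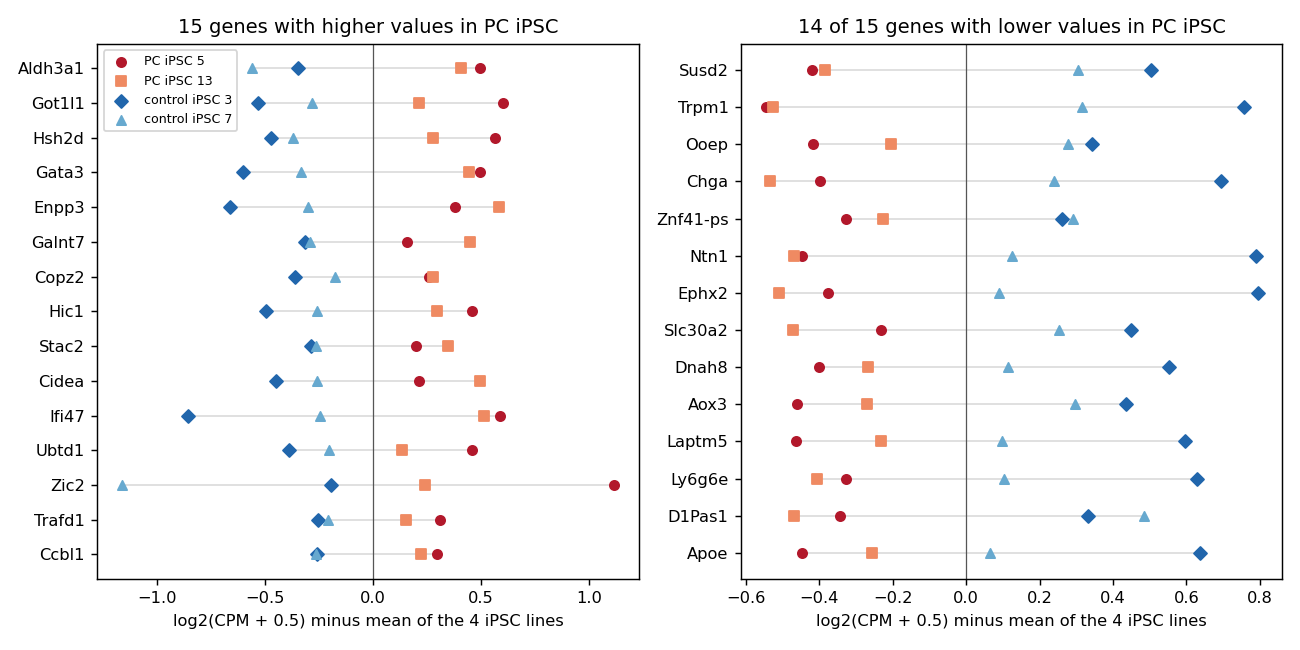
Deviation of each line from the mean of the 4 iPSC lines (x axis, log2 of CPM plus 0.5) for the 15 genes with higher values in PC iPSC (left) and 14 of the 15 with lower values (right), ordered by unadjusted p, 1 marker per line. The rule asks that the groups do not overlap, so their separation is not a result; control iPSC 3, the dark diamond, is the farther control line in most rows, and for Zic2 the lines of each group lie far apart.

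**Figure D3:**
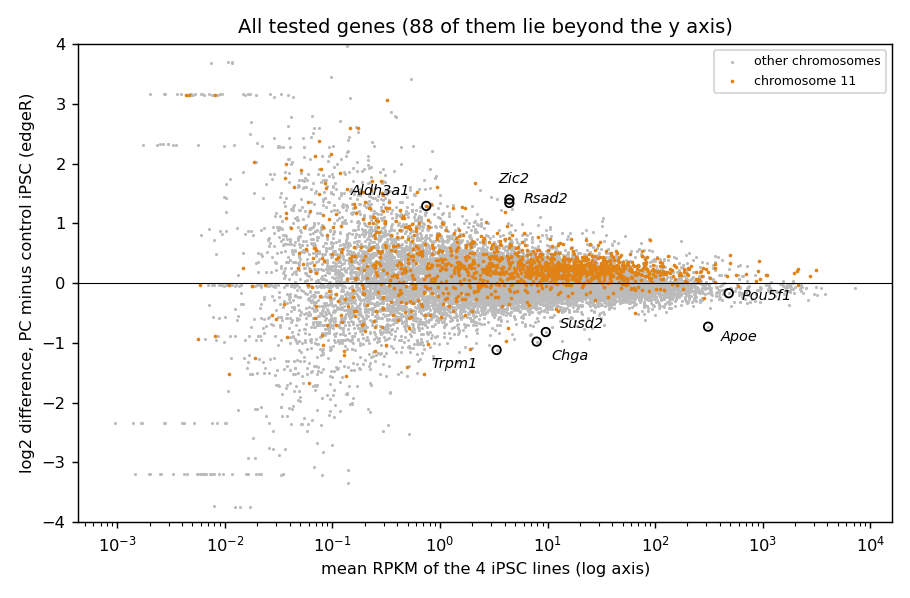
Log2 difference of PC minus control iPSC (y axis, edgeR) against the mean level of the 4 iPSC lines (x axis, RPKM, log axis) for the tested genes, 1 point per gene, with chromosome 11 in orange; 88 genes lie beyond the y axis at 4 and 103 with a mean of 0 are not drawn. The points widen toward low levels, and none of the circled genes passed the test. The 1019 chromosome 11 genes with a mean of at least 1 RPKM have a median of 0.22. On this chromosome PC iPSC 5 alone was high, with a median deviation of 0.30 against -0.09 in PC iPSC 13.

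Position in the genome set 1 group of genes apart. On chromosome 11 the median log2 difference was 0.22 over 1019 genes with a mean of at least 1 RPKM, while the medians of the other chromosomes ran from -0.04 to -0.01. The median deviation from the mean of the 4 lines was 0.30 in PC iPSC 5, -0.09 in PC iPSC 13, -0.09 in control iPSC 3 and -0.10 in control iPSC 7, so that PC iPSC 5 alone was high. Of the 1352 tested genes of chromosome 11, the groups did not overlap with higher values in PC iPSC for 377 (27.9%), against 2027 of 15083 (13.4%) elsewhere. An unadjusted p under 0.05 with higher values was found for 45 of them (3.33%), against 150 (0.994%) elsewhere. Chromosome 11 held 8.23% of the tested genes, and 5 of the 15 genes with higher values above: Aldh3a1, Copz2, Hic1, Stac2 and Ifi47. The fit without chromosome 11 also called 0 genes.

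The genes of carnitine uptake and of the carnitine shuttle, the path of palmitoylcarnitine itself, mostly had slightly higher values in PC iPSC. Of 15 tested genes 11 had positive and 3 negative log2 differences with a median of 0.18, beside 0.00 over all tested genes. In 7 of 15 (46.7%) the PC lines lay above the control lines, beside 14.6% of all tested genes, and in 0 below them. None had an unadjusted p under 0.05. The median was 0.02 without PC iPSC 5 and 0.08 over the members with a mean of at least 5 RPKM, and off chromosome 11 the PC lines lay above in 5 of 12 genes.

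Along the path, Slc22a5, the plasma membrane carnitine transporter encoded on chromosome 11, had 8.06 and 3.10 RPKM in PC iPSC 5 and 13, and 3.65 and 2.81 RPKM in control iPSC 3 and 7. PC iPSC 5 alone was high, and the groups overlapped. Cpt1a, the carnitine palmitoyltransferase of the outer membrane, had 37.7 and 38.6 RPKM in the PC lines and 40.8 and 35.8 RPKM in the control lines, with a log2 difference of -0.03 (SE 0.13). The carrier Slc25a20 had 58.3 and 43.7 RPKM in the PC lines and 41.9 and 47.1 RPKM in the control lines. Both of these genes overlapped between the groups. Cpt2, the inner enzyme, had 14.9 RPKM in both PC lines, against 12.8 and 13.2 RPKM in the control lines (0.18, SE 0.13). Crat, which acts on short-chain acylcarnitines, had 3.76 and 3.56 RPKM in the PC lines, against 3.36 and 3.19 RPKM in the control lines (0.14, SE 0.15). Tmlhe, the first enzyme of carnitine synthesis, had 3.36 and 3.53 RPKM in the PC lines, against 2.50 and 3.17 RPKM in the control lines (0.26, SE 0.23). These separations were smaller than their intervals.

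The RNA of beta-oxidation genes had small differences in both directions. Of 33 tested genes of fatty acid oxidation, 18 had positive and 15 negative differences, with a median of 0.04. In 3 genes (9.09%) the PC lines lay above and in 7 (21.2%) below the control lines, beside 14.6% and 16.8% of all genes. Acadvl, the very long-chain acyl-CoA dehydrogenase on chromosome 11, had 44.7 and 26.4 RPKM in PC iPSC 5 and 13, and 24.1 and 27.4 RPKM in control iPSC 3 and 7, so that PC iPSC 5 alone was high. Hadha, the alpha subunit of the trifunctional protein, had 40.3 and 41.3 RPKM in the PC lines, against 43.1 and 44.2 RPKM in the control lines (-0.12, SE 0.12). Ehhadh, the peroxisomal bifunctional enzyme, had 2.83 and 2.58 RPKM in the PC lines, against 2.23 and 2.21 RPKM in the control lines (0.26, SE 0.22). Targets of the fatty acid receptors of the PPAR family were split as well, with 8 positive and 7 negative differences among 15 tested genes and a median of 0.01.

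Of the protein kinase C family and its relatives, 9 of 14 tested genes had positive differences, with a median of 0.16. The PC lines lay above the control lines in 5 (35.7%) and below in 1 (7.14%), beside 14.6% and 16.8%, and 0 had an unadjusted p under 0.05. The median was 0.06 without PC iPSC 5, 0.07 without control iPSC 3 and -0.04 over the members with a mean of at least 5 RPKM. Prkcd, a form activated by diacylglycerol, had 21.2 and 19.2 RPKM in PC iPSC 5 and 13, against 14.7 and 18.0 RPKM in control iPSC 3 and 7 (0.28, SE 0.15). Pkn3, a kinase of the related Pkn group, was the 1 member below, with 8.29 and 10.0 RPKM in the PC lines, against 11.3 and 10.3 RPKM in the control lines (-0.26, SE 0.17). For both genes the PC line nearest to the controls was within 2 RPKM of them.

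Nuclear genes of the respiratory chain had small differences that mostly lay to one side. Of 76 tested genes, 61 had negative and 15 positive log2 differences with a median of -0.11. In 43 (56.6%) both PC lines lay below both control lines, beside 16.8% of all tested genes, and in 3 (3.95%) above. Of the 76, 4 had an unadjusted p under 0.05 in edgeR, all with lower values, beside 190 of all 16435 tested genes (1.16%). The median deviation from the mean of the 4 lines was -0.10 in PC iPSC 5, -0.02 in PC iPSC 13, 0.08 in control iPSC 3 and 0.04 in control iPSC 7. Summed over members, the level was 11029 and 11015 RPKM in PC iPSC 5 and 13, and 12087 and 11540 RPKM in control iPSC 3 and 7, with 11029 RPKM in ESC.

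By complex, both PC lines lay below both control lines in 22 of 37 genes of complex I (59.5%), the NADH dehydrogenase, and in 2 of 4 of complex II. They did so in 2 of 9 of complex III (22.2%) and in 9 of 11 of complex IV (81.8%), cytochrome c oxidase. In complex V, the ATP synthase, it was 8 of 15 (53.3%). The share of all tested genes was 16.8%, and complex III lay near it. Genes under 800 bases, taken up below, numbered 9 of 11 in complex IV, 22 of 37 in complex I, 8 of 15 in complex V, 5 of 9 in complex III and 0 of 4 in complex II. In complex IV, Cox7b had 82.6 and 105.4 RPKM in PC iPSC 5 and 13, against 128.1 and 118.3 RPKM in control iPSC 3 and 7 (-0.41, SE 0.17, unadjusted p = 0.0434, edgeR). Cox7c had 95 and 97.8 RPKM in the PC lines, against 129.2 and 116.1 RPKM in the control lines (-0.37, SE 0.13). In complex V, Atp5e, the epsilon subunit, had 86.5 and 81.3 RPKM in the PC lines, against 109.8 and 102.0 RPKM in the control lines (-0.36, SE 0.13). In complex I, Ndufa5 had 25.1 and 24.5 RPKM in the PC lines, against 34.8 and 29.1 RPKM in the control lines (-0.38, SE 0.19). Both PC lines lay below both control lines in all 4 genes, and control iPSC 3 was the highest line each time.

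Length moved with this result. Respiratory genes are short, and 44 of the 76 are under 800 bases. Of these, 31 (70.5%) had both PC lines below both control lines, with a median of -0.20, whereas of the 32 longer members 12 (37.5%) did, with a median of -0.07. Among all genes with a mean of at least 1 RPKM, 173 of 512 genes under 800 bases (33.8%) and 2030 of 11658 longer genes (17.4%) had both PC lines lower, with 46 short genes (8.98%) higher. The share among respiratory genes was thus above that of all genes in both classes of length, and the difference in these shares was not tested. The 4 members on chromosome 11 had positive differences.

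**Figure D4:**
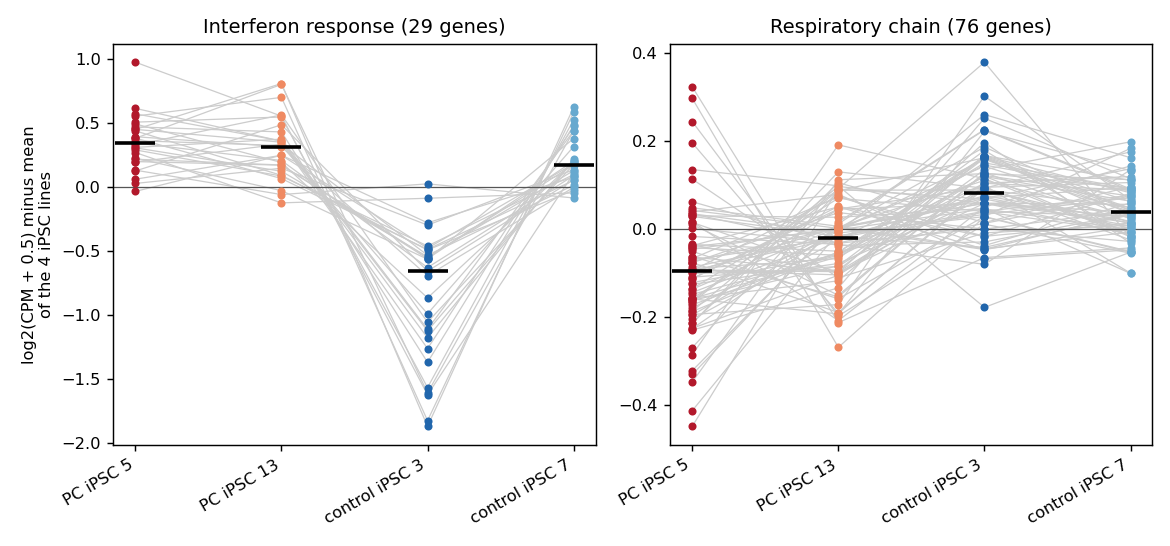
Deviation from the mean of the 4 iPSC lines (y axis, log2 of CPM plus 0.5) in PC iPSC 5, PC iPSC 13, control iPSC 3 and control iPSC 7 for 29 interferon genes (left) and 76 respiratory chain genes (right), 1 grey line per gene and a black bar at the median. In the interferon panel control iPSC 3 lies alone at a median of -0.66 while the other 3 lines lie between 0.17 and 0.34; in the respiratory panel the medians of -0.10 and -0.02 in the PC lines lie below 0.08 and 0.04 in the control lines, on a narrower axis.

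Interferon response genes all had positive differences, and 1 control line stood apart from the other 3 lines. All 29 tested genes had a positive log2 difference, with a median of 0.52. Of them, 3 had an unadjusted p under 0.05 in edgeR, beside 195 of all 16435 tested genes (1.19%) with higher values. In 11 (37.9%) both PC lines lay above both control lines, beside 14.6% of all tested genes. The median deviation was 0.34 and 0.31 in PC iPSC 5 and 13, -0.66 in control iPSC 3 and 0.17 in control iPSC 7. The median difference was 0.11 without control iPSC 3 and 0.99 without control iPSC 7. Control iPSC 3 also had the lowest sum of fibroblast markers, at 7.75% of the MEF level against 14.2% to 17.1% in the other 3 lines. Mgp, a member of that sum, was instead highest in control iPSC 3, at 25.2 RPKM against 8.46 to 10.5 RPKM in the others. The part of feeder cells in the interferon values was not tested.

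Rsad2, which encodes the antiviral enzyme viperin, had 7.43 and 5.30 RPKM in PC iPSC 5 and 13, against 1.08 and 3.85 RPKM in control iPSC 3 and 7, with 22.8 RPKM in ESC and 3.99 RPKM in MEF. Its log2 difference was 1.34 (SE 0.51, unadjusted p = 0.0353, edgeR), and 0.70 without control iPSC 3. Oasl2, of the oligoadenylate synthetase family, had 49.7 and 40.0 RPKM in the PC lines, against 13.8 and 36.2 RPKM in the control lines, with 92.2 RPKM in ESC and 35.3 RPKM in MEF (0.81, SE 0.40). Dhx58, a helicase of the RIG-I family, had 4.80 and 3.96 RPKM in the PC lines, against 1.30 and 3.53 RPKM in the control lines (0.83, SE 0.44). Without control iPSC 3 the difference was 0.29 for both Oasl2 and Dhx58. In all 3 genes control iPSC 3 was the lowest line and control iPSC 7 the next. The ESC level exceeded the MEF level for Rsad2 and Oasl2.

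Start regions of interferon genes are shown since the list lay to one side and carries a known common element. Of 20 interferon genes with a RefSeq window, 10 held, on either strand, GAAA followed by any 2 bases and GAAA again, the core of the interferon-stimulated response element bound by interferon regulatory factors: Bst2, Ddx58, Ifih1, Ifit1, Ifit3, Isg15, Oas1a, Oas3, Rsad2 and Stat2. The same letters were found in 3.44% of all 32851 windows and in 446 of 12230 tested genes with a window (3.65%). The windows of Rsad2 (chr12:26456403-26456702, minus strand), Oas1a (chr5:120907476-120907775, minus strand) and Ddx58 (chr4:40239776-40240075, minus strand) follow, with the matches in capitals. In Rsad2 the match begins 120 bases before the start and is on the opposite strand, in Oas1a 2 matches that begin 20 and 14 bases before the start overlap, and in Ddx58 the match lies just past the start on the opposite strand.
Rsad2: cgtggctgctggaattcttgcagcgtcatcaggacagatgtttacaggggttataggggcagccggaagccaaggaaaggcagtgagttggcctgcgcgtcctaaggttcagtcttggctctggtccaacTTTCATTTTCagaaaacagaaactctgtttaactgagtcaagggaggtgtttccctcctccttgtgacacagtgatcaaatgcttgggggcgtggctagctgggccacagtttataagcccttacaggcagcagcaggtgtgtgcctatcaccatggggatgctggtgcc
Oas1a: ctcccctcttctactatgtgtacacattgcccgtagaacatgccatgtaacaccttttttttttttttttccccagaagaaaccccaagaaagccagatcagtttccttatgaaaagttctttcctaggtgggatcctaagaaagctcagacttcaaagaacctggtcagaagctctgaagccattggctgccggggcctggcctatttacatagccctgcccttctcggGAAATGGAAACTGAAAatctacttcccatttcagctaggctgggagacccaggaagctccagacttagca
Ddx58: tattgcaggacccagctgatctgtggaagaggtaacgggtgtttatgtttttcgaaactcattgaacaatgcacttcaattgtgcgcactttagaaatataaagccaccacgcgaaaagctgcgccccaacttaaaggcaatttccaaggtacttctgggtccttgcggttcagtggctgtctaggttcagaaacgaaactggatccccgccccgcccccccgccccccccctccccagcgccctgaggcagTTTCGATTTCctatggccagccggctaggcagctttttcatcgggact
Oas1a, an oligoadenylate synthetase, had 45.2 and 34.9 RPKM in PC iPSC 5 and 13, against 23.9 and 34.5 RPKM in control iPSC 3 and 7. Ddx58, the RNA sensor RIG-I, had 25.4 and 22.2 RPKM in the PC lines, against 12.5 and 20.4 RPKM in the control lines. Oas1a and Ddx58 were chosen after their values were seen, to show matches of different kinds.

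Fibroblast and mesenchymal genes were also lowest in control iPSC 3. Of 42 tested genes 39 had positive and 3 negative differences, with a median of 0.36. The median deviation was 0.30 and 0.11 in PC iPSC 5 and 13, -0.58 in control iPSC 3 and 0.20 in control iPSC 7, so that control iPSC 3 alone was low, and without it the median difference was 0.01. Both PC lines lay above both control lines in 8 (19%), beside 14.6% of all genes. Tgfbi, a matrix protein induced by TGF-beta, averaged 21.0 ± 2.66 RPKM in PC iPSC and 11.6 ± 7.99 RPKM in control iPSC (SD, n = 2 each), with 5.98 RPKM in control iPSC 3 and 17.3 RPKM in control iPSC 7 (0.83, SE 0.43). Col6a3, a collagen VI chain, had 7.41 and 7.21 RPKM in the PC lines, against 2.49 and 6.43 RPKM in the control lines. Mgp, the matrix Gla protein, went the other way with 10.0 and 8.46 RPKM in the PC lines, against 25.2 and 10.5 RPKM in the control lines, and 1662.8 RPKM in MEF (-0.97, SE 0.37). Without control iPSC 3 the differences were 0.26 for Tgfbi, 0.17 for Col6a3 and -0.20 for Mgp. In antigen presentation genes the median deviations were 0.28 and 0.02 in the PC lines and -0.50 and 0.25 in the control lines, and the median difference of 0.28 became -0.11 without control iPSC 3.

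Within the pluripotency network most genes were close between the groups. Of 22 tested genes of naive pluripotency, 10 had positive and 12 negative differences, with a median of -0.03. Both PC lines lay above both control lines in 2 (9.09%) and below in 2 (9.09%), beside 14.6% and 16.8% of all tested genes. Tfcp2l1, a factor of the naive network downstream of leukemia inhibitory factor, had the largest difference among the non-overlapping members, with 78.3 and 84.3 RPKM in PC iPSC 5 and 13, against 130.2 and 102.8 RPKM in control iPSC 3 and 7. Its log2 difference was -0.54 (SE 0.17, unadjusted p = 0.015, edgeR), and ESC had 64.2 RPKM. Dppa5a, the other member with both PC lines below, had 2185.4 and 2637.8 RPKM in the PC lines, against 3053.0 and 2740.5 RPKM in the control lines (-0.28, SE 0.17). Klf4, a factor of the same network, was listed with the reprogramming factors and is not among the 22 genes. It had 70.9 and 91.5 RPKM in the PC lines, against 96.5 and 95.4 RPKM in the control lines (-0.26, SE 0.17). Utf1, a chromatin factor of embryonic stem cells, had 67.4 and 61.6 RPKM in the PC lines, against 52.2 and 51.6 RPKM in the control lines (0.29, SE 0.12). Some genes varied by line more than by group: Dppa3, the maternal factor Stella, had 76.7 and 13.9 RPKM in the PC lines and 18.8 and 22.6 RPKM in the control lines. PC iPSC 5 alone was near the 96.5 RPKM of ESC, and the log2 difference of 1.09 (SE 0.65) became -0.57 without that line. Myc, a growth regulator that is also not among the 22 genes, had 24.2 and 57.4 RPKM in the PC lines and 33.1 and 37.2 RPKM in the control lines. Its PC lines lay on either side of the control lines.

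Imprinted genes, which are often tracked in iPSC since their marks can be lost in reprogramming, gave 27 positive and 18 negative differences in 45 tested genes, with a median of 0.11, and of 0.01 without PC iPSC 5. Meg3, the maternal long RNA of the Dlk1-Dio3 locus, had 8.21 and 7.55 RPKM in PC iPSC 5 and 13, 6.18 and 8.65 RPKM in control iPSC 3 and 7, and 9.97 RPKM in ESC. Rian, of the same locus, had 20.1 and 17.6 RPKM in the PC lines, 12 and 20.5 RPKM in the control lines, and 23.3 RPKM in ESC. Both were thus present in all 4 lines, and the groups overlapped. H19, the maternal long RNA next to Igf2, had 127.4 and 92.2 RPKM in the PC lines, against 48.5 and 80.1 RPKM in the control lines, with 88.2 RPKM in ESC and 1201.1 RPKM in MEF (0.74, SE 0.27, unadjusted p = 0.0277, edgeR), and the difference was 0.43 without control iPSC 3. As for the summed fibroblast markers, control iPSC 3 was lowest and PC iPSC 5 highest for H19. PC iPSC 13 lay above control iPSC 7 for H19 but below it for the markers, and the part of feeder RNA was not tested. Nnat, a membrane proteolipid expressed from the paternal allele, had 3.55 and 3.62 RPKM in the PC lines, against 2.13 and 1.97 RPKM in the control lines, and 0.425 RPKM in MEF (0.78, SE 0.29, unadjusted p = 0.0308). The lines of each group were close for Nnat, and its MEF level was below that of every iPSC line.

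Germline, early embryo and lineage genes showed line-specific values. Of 33 germline and meiosis genes 22 had positive differences (median 0.14), and both PC lines lay above both control lines in 8 (24.2%), beside 14.6%, but the median was -0.06 without PC iPSC 5. Tex101, a germ cell surface protein, had 3.59 and 2.13 RPKM in PC iPSC 5 and 13, against 1.27 and 1.83 RPKM in control iPSC 3 and 7. In the X-linked Rhox homeobox cluster 10 of 14 tested genes had positive differences with a median of 0.99, most of them at low levels, and the median was 0.45 without PC iPSC 5. Rhox4g had 1.18 and 1.02 RPKM in the PC lines, against 0.259 and 0.386 RPKM in the control lines (1.73, SE 0.65, unadjusted p = 0.033, edgeR). Rhox5, by far the highest of the cluster, had 409.7 and 386.8 RPKM in the PC lines and 422.7 and 389.2 RPKM in the control lines, and its groups overlapped. Rhox2 and Rhox4 copies are near-identical, so reads may be split among them and the values of Rhox4g and Rhox2a are uncertain. Hand1, a helix-loop-helix factor of trophoblast giant cells and heart that lies on chromosome 11, had 1.41 and 0.776 RPKM in the PC lines, against 0.420 and 0.457 RPKM in the control lines (1.28, SE 0.50). Krt8, a keratin of simple epithelia, had 36.1 and 23.3 RPKM in the PC lines, against 22.1 and 18.6 RPKM in the control lines (0.52, SE 0.21), and the difference was 0.20 without PC iPSC 5.

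Genes of proliferation and stress gave small values. Of 30 cell cycle and replication genes 25 had negative differences, with a median of -0.16, and both PC lines lay below both control lines in 8 (26.7%), beside 16.8% of all genes. Their median deviation was -0.23 in PC iPSC 5, 0.01 in PC iPSC 13, 0.16 in control iPSC 3 and 0.01 in control iPSC 7, with PC iPSC 5 lowest, control iPSC 3 highest and the other two lines alike. The median was -0.07 without PC iPSC 5 and -0.09 without control iPSC 3. Mcm5, a subunit of the replicative helicase, had 77.4 and 92.5 RPKM in PC iPSC 5 and 13, against 120.4 and 94.4 RPKM in control iPSC 3 and 7 (-0.36, SE 0.18), and the difference was -0.17 without control iPSC 3. Targets of p53 had positive differences in 12 of 15 genes with a median of 0.15, but the groups overlapped in all 15 and the median was 0.03 without PC iPSC 5. Xbp1, a factor of the unfolded protein response on chromosome 11, had 53 and 40.0 RPKM in the PC lines, against 30.2 and 33.8 RPKM in the control lines (0.51, SE 0.16, unadjusted p = 0.0157, edgeR). Asns, the asparagine synthetase of the amino acid response, had 589.1 and 670.6 RPKM in the PC lines, against 746.0 and 744.7 RPKM in the control lines (-0.26, SE 0.15). Glycolysis genes had 8 positive and 14 negative differences, with a median of -0.05.

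**Figure D5:**
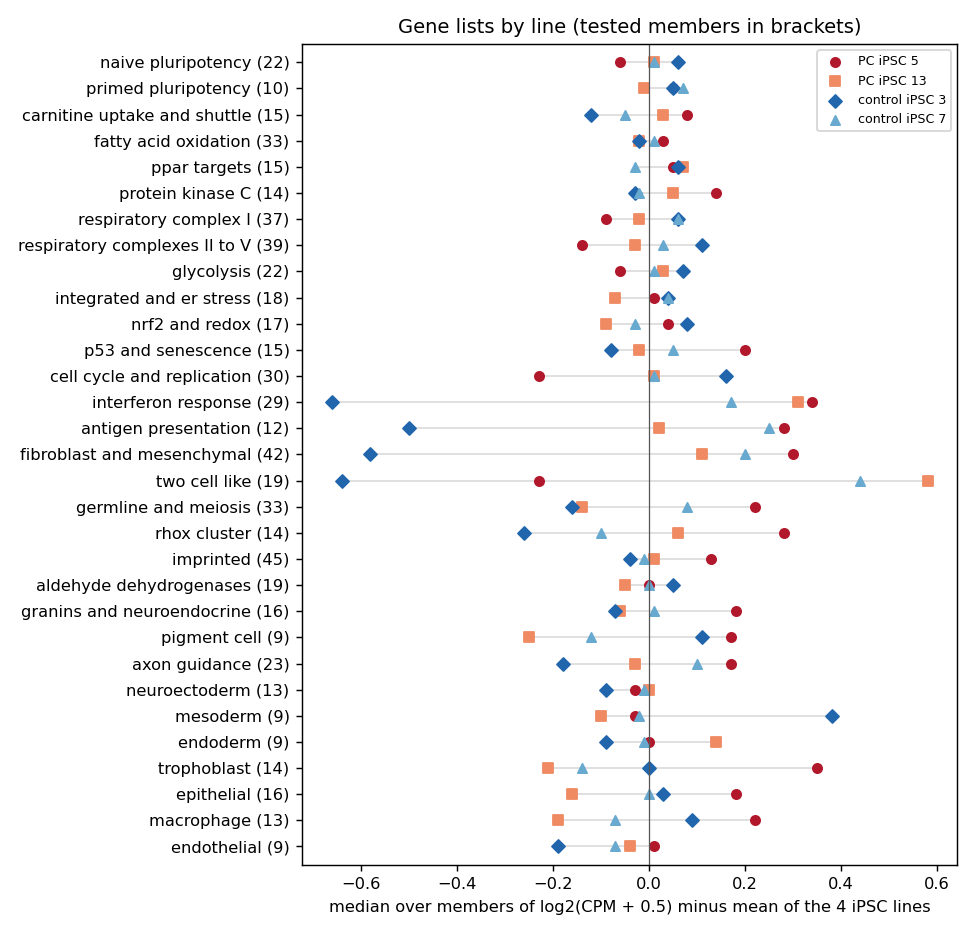
Median over the tested members of each gene list of the deviation from the mean of the 4 iPSC lines (x axis, log2 of CPM plus 0.5), 1 marker per line, with the number of tested members in brackets. Interferon, antigen presentation and fibroblast genes have control iPSC 3 far to the left of the other 3 lines, at -0.66, -0.50 and -0.58; the respiratory lists are the ones where both PC lines lie left of both control lines with more than 30 members each.

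Across the plot of lists by line, most lists had a spread between lines of one group as wide as that between groups. The 2-cell-like genes had medians of -0.23 and 0.58 in PC iPSC 5 and 13, and -0.64 and 0.44 in control iPSC 3 and 7, so that the lines paired across the groups. Of the markers of other cell types, the 3 endothelial ones summed to 110.4 and 75.0 RPKM in the PC lines, and 70.1 and 74.1 RPKM in the control lines, with 76.6 RPKM in ESC and 0.356 RPKM in MEF. The 4 macrophage markers summed to 1.11 and 0.369 RPKM in the PC lines, and 1.39 and 0.216 RPKM in the control lines, against 70.8 RPKM in MEF. The 4 neuroectoderm markers summed to 2.03 and 0.786 RPKM in the PC lines, and 0.766 and 0.512 RPKM in the control lines. The PC lines lay above the control lines for the endothelial and neuroectoderm sums, by narrow margins in PC iPSC 13, while the macrophage sums of the PC lines lay between those of the control lines. Of the 3 endothelial markers, Pecam1, Cdh5 and Tie1, 1 was at 0 reads in PC iPSC 5 and 1 in control iPSC 3. Their sum in ESC lay within the range of the iPSC lines, so it is no measure of endothelial cells.

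The one setting that gave calls left out control iPSC 7. With control iPSC 3 as the only control line, edgeR called 309 genes, 285 with higher and 24 with lower values in PC iPSC, among them Rsad2, Oasl2, Tgfbi, Apoe, Ephx2, Ntn1, Susd2, Trpm1 and Chga. Of the 285, the PC lines also lay above control iPSC 7 in 72, and of the 24 they lay below it in 19. Over all tested genes the PC lines lay above both control lines in 14.6% and below both in 16.8%. The called genes were chosen by their distance from control iPSC 3, so their share cannot be read directly against these. The lone control is assumed there to vary like the other lines, and a difference between the groups and a trait of control iPSC 3 cannot be told apart in that fit. Without control iPSC 3, without PC iPSC 5 or without PC iPSC 13 the count was 0 each time.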

How the data were processed

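RNA sequencing counts of 6 mouse libraries were used, per the labels 2 PC iPSC, 2 control iPSC, 1 ESC and 1 MEF. Per the file headers, the authors deposited counts of reads assigned to 1 gene only, RPKM values made from count, gene length and library total, and the percentage of each gene's length covered by reads (some values exceed 100, so it serves only as a description). The submitters' processing notes name CASAVA 1.8.2 and mm10, without a role. Which aligner, counter and annotation were used, and whether strand was, is not given in the sources used here, so reads of antisense neighbours and near-identical copies cannot be told apart. RPKM was recomputed with 1 length per gene. Counts of 1 to 20 reads were even in 62.4% to 67.5% of cases, so intervals at low counts may be too narrow, and they cover counting error and the spread of the lines only.

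By gene ID, 19239 of the table's 19330 genes had a position in RefSeq's GRCm38.p6. Counts were fitted with edgeR 4.0.16 (R 4.3.3) by its quasi-likelihood test after filterByExpr and TMM scaling, with 4 group means over all 6 libraries and 2 residual degrees of freedom. Benjamini-Hochberg adjustment ran over the 16435 genes tested, with a threshold of 0.05. No label says that libraries are separate cultures, so the p-values rest on the spread between these samples alone, which may be technical. Differences are log2 values, PC minus control, with standard error (SE). The fits were tested on simulated counts. Deviations use log2(CPM + 0.5). Groups do not overlap where both lines of one group lie outside the range of the other in TMM-scaled CPM. Alternatives were DESeq2 1.42.0, limma 3.58.1 on log2(RPKM + 1) or log2(RPKM + 0.1), RLE scaling, other filters, the 4 iPSC libraries alone, the fit without chromosome 11 and each line left out.

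Named were 4 genes given with the comparison, the 15 genes in each direction of smallest unadjusted p with no overlap and at least 1 RPKM in the higher group (predicted names passed over), up to 3 non-overlapping members of largest difference per list, and a set of pluripotency, carnitine, kinase, imprinted, Zic, Trpm and granin genes. A few of these genes are not reported here. Rhox5 was chosen after its values were seen. The members, the 35 lists (688 genes, 638 of them tested) and the rules were chosen with earlier results of these data known. Lists were described by counts and medians without a test. RefSeq promoter windows were matched by gene ID for 496 of 662 listed genes.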

Additional observations from a re-analysis of the deposited data

How the results depend on the processing

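The count of 0 genes called was the same with DESeq2, both limma fits, RLE scaling, no filter on low counts, a mean of at least 5 RPKM, the 4 iPSC libraries alone and without chromosome 11, with 153 (mean of at least 5 RPKM) to 490 genes (limma) at an unadjusted p under 0.05. Leaving out a line gave 0 to 309 calls, the 309 without control iPSC 7, and 250 (without control iPSC 3) to 1914 genes (without PC iPSC 13) at an unadjusted p under 0.05, with 1340 without control iPSC 7. Over the left-out lines the median log2 difference ran from 0.11 to 0.99 for interferon genes, from 0.01 to 0.80 for fibroblast genes and from -0.17 to -0.09 for respiratory genes, lowest without control iPSC 3 for the first pair of lists and without PC iPSC 13 for the respiratory genes. Respiratory members of 800 bases or more had a median of -0.07 and those off chromosome 11 of -0.12, both alternatives chosen after seeing the data, as was the scaling used for overlap. With RLE scaling or library totals alone, both PC lines lay below both control lines in 38 and 36 of the 76 respiratory genes, and above them in 16 and 14 of the 29 interferon genes. The shares over all tested genes given above are from TMM scaling, so these counts have no matching share beside them. Of 504 gene values with a line left out, 461 kept direction and side of the threshold, 23 uncalled values changed sign and 20 passed the threshold, all without control iPSC 7. No paired analysis was possible because the groups share no replicate numbers (5 and 13 against 3 and 7). With 2 lines in each group, genes under 1 RPKM had a median 95% interval of 2.92-fold to either side, and single genes had narrower or wider ones.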
